A study of Rattus norvegicus with 30 samples.

Results

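The time dependence of the response to diisononyl phthalate (DINP) was taken from all 30 arrays of a series of 30 on primary rat hepatocytes. For each probe set it is the DINP effect at 48 h minus the DINP effect at 24 h, where an effect is the mean of the 10 DINP arrays minus the mean of the 5 vehicle arrays of that time. A positive value therefore means a higher level with DINP, relative to vehicle, at 48 h than at 24 h. All 31042 probe sets other than the manufacturer's controls were tested, out of 31099 on the array.

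The cells were hepatocytes of male Sprague Dawley rats, bought frozen, plated on collagen under Matrigel and dosed on the third day of culture. The 6 groups of 5 arrays were vehicle (1% DMSO), 25 mM DINP and 100 mM DINP, each at 24 and at 48 h. The doses are printed in the unit of the labels, which could not be checked. Each array came from a separate well, all studied cells had the same strain, sex and culture, and nothing is said of the donor animals in the sources used here. The p-values therefore measure the spread between wells. In such bulk samples fewer cells of a type and less RNA per cell cannot be told apart. Time in culture and time since dosing pass together.

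DINP is a plasticiser of the phthalate class. Phthalates of this kind are known to activate PPARα, a nuclear receptor that switches on genes of fatty acid uptake, peroxisomal and mitochondrial β-oxidation and ω-hydroxylation in rodent liver. Hepatocytes in culture are also known to lose cytochromes P450, transporters and other specialised liver transcripts with time, so an effect measured against vehicle at each time is set against a control that itself moves.

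Levels are given as log2(signal + 16), where signal is the deposited array intensity. Differences and folds are on that scale, so changes of dim genes come out too small. The 40th percentile of all mean levels, 7.955, is used here as a mark for dim probe sets: a fold against a group whose mean lies below it is only a minimum and shifts with the constant. Each gene is represented by its brightest probe set with 1 symbol, and 10604 of 14217 genes lay at or above the mark. Called means an adjusted p under 0.05 in limma's fit of all 6 groups, and ± is limma's moderated standard error. All 13 measured markers of hepatocytes, the labelled cell type, lay at or above the mark. One array, vehicle 48 h replicate 1, stood farthest from its group (median absolute deviation 0.132, against 0.077 to 0.123 for the other arrays), and without it 44 probe sets were called in place of 51.

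The DINP effect differed between the times for 51 probe sets, 0.164% of those tested. Of these, 39 were positive (0.126%) and 12 negative (0.0387%). The share of positive calls was 76.5%, and it was 71.4% when arrays were centred on their medians and 58.7% with quantile normalisation. The calls covered 43 genes through their brightest probe set, 33 positive and 10 negative. The other calls were 3 probe sets without a name here, 2 with several symbols, and 3 further probe sets of Thrsp and Slc25a15. At an unadjusted p under 0.05 there were 2071 probe sets (6.67%), 1034 positive (3.33%) and 1037 negative (3.34%). The count depended on single arrays: it was 27 without vehicle 24 h replicate 5, 32 without vehicle 24 h replicate 4, 33 without vehicle 48 h replicate 2, 30 without DINP 100 mM 48 h replicate 3 and 33 without DINP 100 mM 48 h replicate 4. All 51 kept their sign in every fit, 23 were called in each of the 30 fits that left out 1 array, and 13 were called in those and in 8 other settings. These 13 were Cyp3a2, Bdh1, Dhrs7l1, Afm, Gstt3, Fabp1, Ly6i, Apon, Ces2c, Slc25a15, Il1r2, S100a6 and Cryab. The others lost their call after median centring, without the variance trend, or in both.

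By comparison the DINP effect itself was called for 2862 probe sets at 24 h (9.22% of those tested, 3.98% higher with DINP) and 3457 at 48 h (11.1%, 4.69% higher with DINP). The 2 effects share no arrays. Of the calls, 1862 were made at both times in the same direction, which is 65.1% of the 24 h calls and 53.9% of the 48 h calls, and 6 in opposite directions. Being called at 1 time only did not mean a called time dependence: it was called for 5 of 994 probe sets called at 24 h only and for 22 of 1589 called at 48 h only. Across genes at or above the mark the effects at the 2 times had a Pearson correlation of 0.69, a description over genes, which are not independent replicates.

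**Figure D1:**
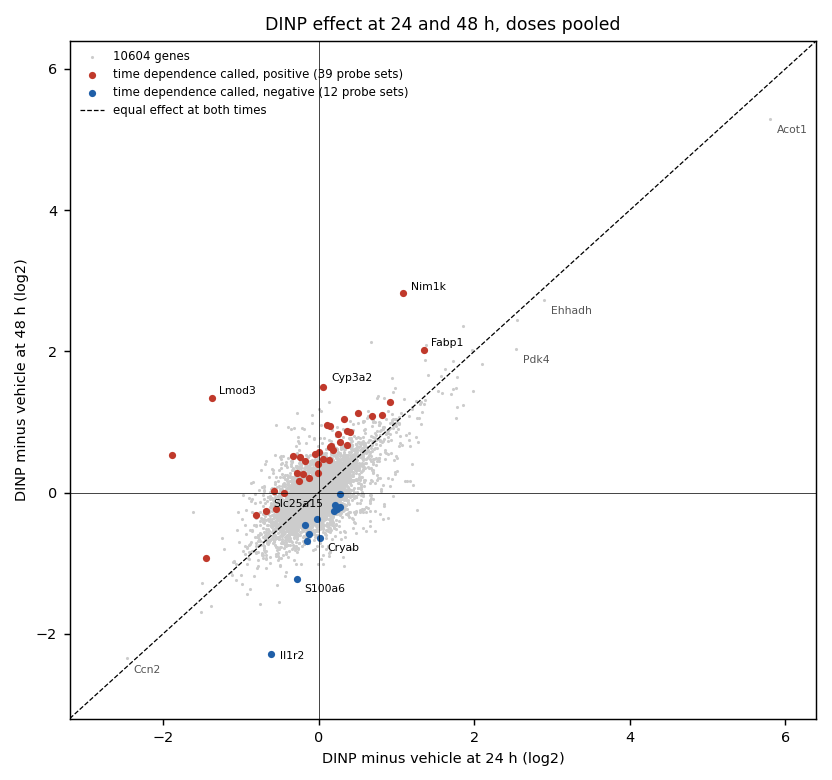
DINP minus vehicle at 24 h (horizontal) and at 48 h (vertical), both log2, doses pooled, for 10604 genes (grey) and the 51 probe sets with a called time dependence (red, 39 positive; blue, 12 negative). Points above the dashed line have a higher effect at 48 h. Ehhadh, with effects of 2.90 at 24 h and 2.73 at 48 h, lies close to the line and is not called. Acot1 (5.80 and 5.30) is not called either, but both effects are minima, so its distance from the line is not bounded.

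Drug-metabolising enzymes supplied the steepest positive value among the stable calls. Cyp3a2, a cytochrome P450 of drug and steroid metabolism, had vehicle levels of 12.22, 12.60, 12.86, 12.52 and 12.36 at 24 h and of 11.29, 10.96, 11.08, 11.05 and 10.66 at 48 h. The DINP arrays ran from 11.99 to 13.02 at 24 h (median 12.64) and from 11.86 to 12.97 at 48 h (median 12.60). The vehicle arrays of 48 h were low and lay below every other array, while the DINP arrays of the 2 times overlapped. The DINP effect was 0.05 ± 0.12 at 24 h (adjusted p = 0.885) and 1.5 ± 0.12 at 48 h (adjusted p = 4.77e-11), and the time dependence was 1.45 ± 0.17 (adjusted p = 2.75e-05). In vehicle the transcript fell by 1.51 (adjusted p = 7.72e-09), and with DINP the change was -0.05 (adjusted p = 0.833).

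The 250 bases before the start of Cyp3a2 and of Fabp1, the fatty acid binding protein described next, are shown. Both genes are stable calls, chosen because each window holds a match to a motif of liver receptors. The sequences are from RefSeq on GRCr8, at chr12:14343858-14344107 (minus strand) and chr4:104749090-104749339 (plus strand), written 5′ to 3′ along the gene.
Cyp3a2: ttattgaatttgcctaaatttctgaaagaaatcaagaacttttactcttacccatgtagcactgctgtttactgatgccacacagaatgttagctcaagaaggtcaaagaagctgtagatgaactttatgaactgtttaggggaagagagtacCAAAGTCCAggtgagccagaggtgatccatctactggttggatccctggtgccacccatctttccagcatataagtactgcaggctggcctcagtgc
Fabp1: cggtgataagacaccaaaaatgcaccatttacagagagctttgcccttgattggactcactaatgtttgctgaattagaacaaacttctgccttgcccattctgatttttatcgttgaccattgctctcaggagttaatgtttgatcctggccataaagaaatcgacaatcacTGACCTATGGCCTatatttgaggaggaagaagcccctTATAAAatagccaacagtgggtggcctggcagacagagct

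Capitals mark the matches. In Cyp3a2 it is CAAAGTCCA, a core motif of HNF4, 97 to 89 bases before the start. In Fabp1 the first is TGACCTATGGCCT, a match on the opposite strand to the direct repeat bound by PPARα with RXR (2 copies of AGGNCA with 1 free base between them), 77 to 65 bases before the start, and the second is a TATA motif. Both strands were searched in the same window of 33469 promoters for these motifs and for the AP-1 motif TGANTCA. No other motif was searched, so unmarked bases may hold sites of other receptors. The direct repeat occurred in 0.368% of the promoters, CAAAGTCCA in 0.338%, TATAAA in 12.9% and TGANTCA in 6.34%. Of the 43 called genes 33 had a promoter sequence here. Among 27 positive ones 1 held the direct repeat, 1 the HNF4 core, 4 TATAAA and 3 TGANTCA, against 0 for each motif among 6 negative ones. These counts are of genes, while the shares are of promoters. The windows of Bdh1 and S100a6, also stable calls, held no match. A match is a description and not a bound site.

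Fabp1, the liver fatty acid binding protein, had vehicle levels of 12.86, 13.07, 13.13, 12.81 and 12.89 at 24 h and of 12.86, 12.73, 12.76, 12.69 and 12.54 at 48 h. With DINP the levels ran from 14.11 to 14.54 at 24 h (median 14.29) and from 14.54 to 14.96 at 48 h (median 14.75). DINP arrays were above vehicle at both times with no overlap. The effect grew from 1.35 ± 0.07 to 2.02 ± 0.07, a time dependence of 0.67 ± 0.10 (adjusted p = 3.94e-04). With DINP the level rose by 0.43 (adjusted p = 1.00e-06), and in vehicle the change was -0.24 (adjusted p = 0.0635). Of 84 probe sets called at both times with effects of at least 2-fold at each, only Fabp1 and Nim1k had a called time dependence, and 41 of the 84 were larger at 48 h.

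Several other enzymes of drug metabolism were called in the same direction. Not all followed it: Cyp2c11 had a time dependence of -0.53, Ephx1 of -0.03 and Por of -0.01, none of them called. The theta-class glutathione transferase Gstt3 rose in vehicle from 12.39, 12.16, 12.41, 12.41 and 12.51 to 12.95, 12.77, 12.90, 12.66 and 12.51 (by 0.38, adjusted p = 0.00953) and rose with DINP by 1.09 (adjusted p = 1.96e-13), from a median of 12.74 to one of 13.74. The DINP arrays of 48 h, 13.64 to 14.02, lay above every other array. Its time dependence was 0.71 ± 0.12 (adjusted p = 0.00269). Ces2c, a carboxylesterase, also rose in both, and its effect went from 0.37 ± 0.05 to 0.87 ± 0.05 (time dependence 0.50 ± 0.08, adjusted p = 9.09e-04). Its DINP arrays lay above vehicle without overlap at both times.

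Cyp3a18, a relative of Cyp3a2, fell in vehicle by 0.65 (adjusted p = 7.10e-05) and changed by -0.05 with DINP (adjusted p = 0.749). Its time dependence of 0.60 ± 0.13 (adjusted p = 0.0376) was called in 12 of the 30 fits without 1 array. Cyp2c6v1 was called in all 30 (0.50 ± 0.09, adjusted p = 0.0105), Cyp2a2 in 4 (0.49 ± 0.11, adjusted p = 0.0493) and the alpha-class transferase Gsta3 in 30 (0.44 ± 0.08, adjusted p = 0.00745). Gsta3 differs in kind: its effect was -0.44 ± 0.06 at 24 h, with DINP arrays all below vehicle, and -0.00 ± 0.06 at 48 h, with overlap. Probes of close P450 and transferase relatives can bind each other's transcripts, so single members of these families are less certain.

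Among enzymes and carriers of lipid and amino acid metabolism, Bdh1, the mitochondrial dehydrogenase that interconverts the ketone bodies, had vehicle levels of 11.07, 11.19, 11.28, 11.31 and 11.11 at 24 h and of 10.20, 10.96, 10.45, 10.83 and 10.65 at 48 h. With DINP it ran from 11.04 to 11.45 (median 11.31) and from 11.39 to 11.73 (median 11.58). The vehicle arrays of 48 h were the lowest and the groups of 48 h did not overlap. Bdh1 fell in vehicle by 0.58 (adjusted p = 1.96e-04) and rose with DINP by 0.27 (adjusted p = 0.00635), which gives 0.85 ± 0.12 (adjusted p = 3.94e-04). A second, dimmer probe set gave 0.73 ± 0.21 and was not called (adjusted p = 0.251).

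Slc25a15, the mitochondrial ornithine carrier of the urea cycle, was lowered by DINP, and less so at 48 h. Vehicle levels were 14.51, 14.42, 14.50, 14.53 and 14.47 at 24 h and 14.38, 14.42, 14.47, 14.51 and 14.52 at 48 h. DINP levels ran from 13.73 to 13.92 at 24 h and from 14.06 to 14.35 at 48 h, below vehicle at both times. The effect went from -0.68 ± 0.04 to -0.26 ± 0.04 (time dependence 0.42 ± 0.06, adjusted p = 4.39e-04), and a second probe set of the gene was also called (0.50 ± 0.09, adjusted p = 0.00968). Its other probe sets were positive but not called: 0.30 ± 0.07 (adjusted p = 0.0844), 0.34 ± 0.10 (0.251), 0.31 ± 0.10 (0.424) and, below the mark, 1.25 ± 0.53 (0.653). Hgd and Fah, both enzymes of tyrosine breakdown, were called with 0.57 ± 0.10 (adjusted p = 0.00688) and 0.29 ± 0.05 (adjusted p = 0.00269). The glycerol channel Aqp7 (0.37 ± 0.08, adjusted p = 0.0376) and the retinol saturase Retsat (0.29 ± 0.05, adjusted p = 0.0149) were raised by DINP at both times and more so at 48 h. Aqp7 was called in 11 of 30 fits, and Retsat in all but that without vehicle 24 h replicate 5, where its adjusted p was 0.0547.

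Bile acid transporters and enzymes gave calls that were less stable. Slc10a1, the sodium-dependent bile acid importer, went from -0.18 ± 0.09 to 0.45 ± 0.09 (time dependence 0.63 ± 0.12, adjusted p = 0.0232), with overlapping arrays at both times, and was called in 25 of 30 fits. The organic anion importer Slco1b2 gave 0.74 ± 0.16 (adjusted p = 0.0405, 11 of 30 fits), the cholic acid enzyme Cyp8b1 0.47 ± 0.10 (adjusted p = 0.0376, 14 of 30) and Acox2, the oxidase of branched acyl-CoA and bile acid side chains, 0.42 ± 0.09 (adjusted p = 0.0452, 8 of 30). A second, dimmer probe set of Slco1b2 gave 0.16 ± 0.35 and was not called (adjusted p = 0.981). Cyp7a1, whose product opens the classical route of bile acid synthesis, was not called (0.60, 95% interval 0.16 to 1.04, adjusted p = 0.489).

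Secreted proteins of the liver included the smallest adjusted p of the whole test. Afm, the vitamin E carrier afamin, had vehicle levels of 13.39, 13.33, 13.45, 13.40 and 13.36 at 24 h and of 11.90, 12.09, 12.10, 12.17 and 12.01 at 48 h. With DINP they ran from 13.25 to 13.73 (median 13.55) and from 12.78 to 13.28 (median 13.02). It fell in both, by 1.33 in vehicle (adjusted p = 7.30e-15) and by 0.52 with DINP (adjusted p = 7.38e-10), and the time dependence was 0.81 ± 0.08 (adjusted p = 9.41e-07). Apoa2, an apolipoprotein of high-density lipoprotein, fell in both too (0.43 ± 0.08, adjusted p = 0.00578). Apon, apolipoprotein N, fell in vehicle by 0.24 (adjusted p = 0.0101) and rose with DINP by 0.33 (adjusted p = 1.37e-06), a time dependence of 0.57 ± 0.07 (adjusted p = 1.37e-04). The mannose-binding lectin Mbl1 gave 0.34 ± 0.07 (adjusted p = 0.0341, 20 of 30 fits).

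The remaining stable positive calls were Dhrs7l1, of the short-chain dehydrogenase family (0.85 ± 0.15, adjusted p = 0.00692), and Ly6i (0.63 ± 0.09, adjusted p = 3.94e-04). Dhrs7l1 was lower with DINP at 24 h (-0.33 ± 0.11, adjusted p = 0.0490) and higher at 48 h (0.52 ± 0.11, adjusted p = 8.84e-04). Nim1k, a protein kinase gene, had the highest value of the genes ranked (1.73 ± 0.37, adjusted p = 0.0405), but its vehicle arrays of 48 h, 4.79 to 6.72, lay below the mark, as did its mean in vehicle at 24 h (7.49). Both effects are then minima, the difference between them is not bounded, and it was 2.12 with a pseudocount of 1 and 1.17 with 64. Nim1k was called in 9 of 30 fits. Lmod3 (2.70 ± 0.56, adjusted p = 0.0322) and 1 unnamed probe set (2.41 ± 0.52, adjusted p = 0.0405) had mean levels below the mark over all arrays, and a second Lmod3 probe set gave -0.98 ± 0.70.

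**Figure D2:**
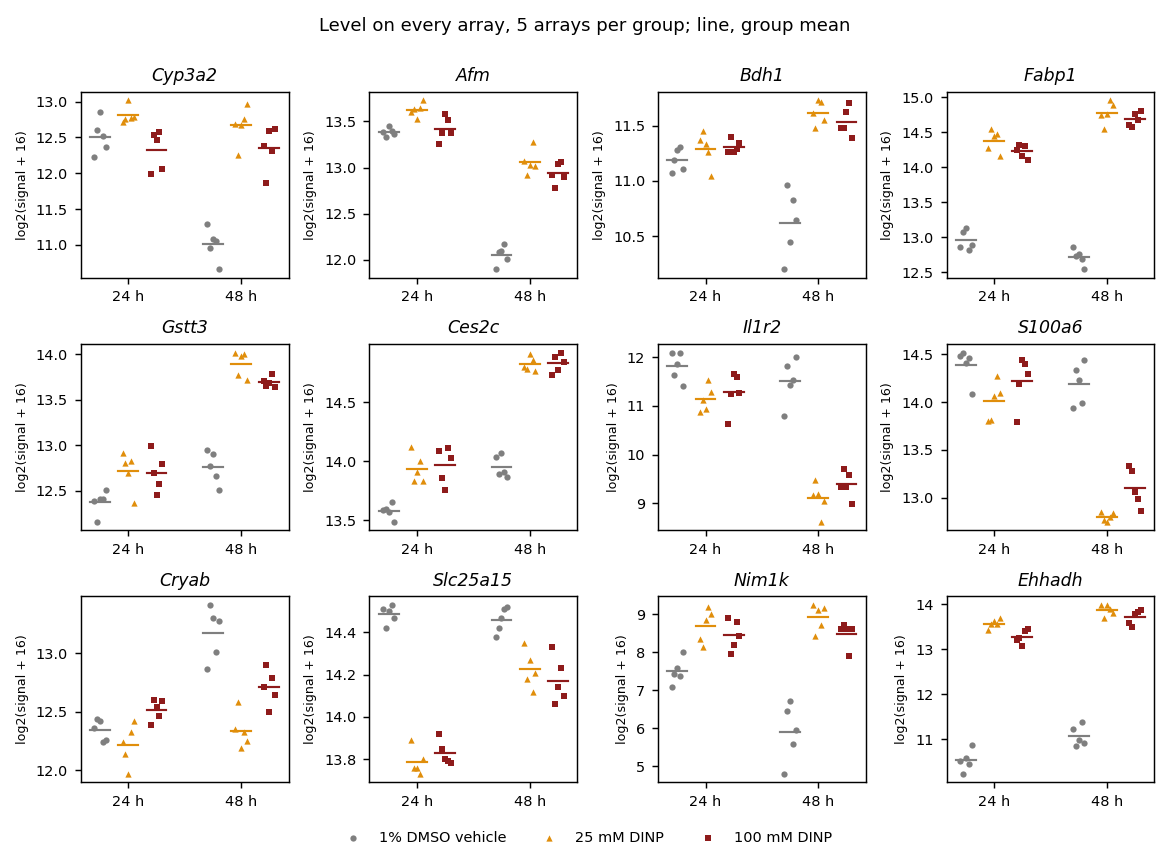
Level, log2(signal + 16), on each of the 30 arrays for 12 genes; grey circles, 1% DMSO vehicle; orange triangles, 25 mM DINP; dark red squares, 100 mM DINP; lines, group means of 5 arrays. In Cyp3a2, Afm and Bdh1 the vehicle arrays of 48 h sit below all others, in Il1r2 and S100a6 the DINP arrays of 48 h do, and in Ehhadh the DINP arrays lie above vehicle at both times.

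On the negative side 3 genes were called in every fit and setting. Il1r2, the decoy receptor that binds interleukin-1 without signalling, had vehicle levels of 12.09, 11.64, 11.87, 12.10 and 11.42 at 24 h and of 10.80, 11.82, 11.44, 11.53 and 12 at 48 h. DINP levels ran from 10.63 to 11.65 at 24 h (median 11.26) and from 8.62 to 9.70 at 48 h (median 9.26). The DINP arrays of 48 h were below every other array. The effect went from -0.61 ± 0.17 to -2.28 ± 0.17, a time dependence of -1.66 ± 0.24 (adjusted p = 4.06e-04), with a fall of 1.97 under DINP (adjusted p = 4.41e-12) and a change of -0.31 in vehicle (adjusted p = 0.465).

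S100a6, a calcium-binding protein, had vehicle levels of 14.48, 14.52, 14.41, 14.46 and 14.09 at 24 h and of 13.94, 14.34, 14.23, 13.99 and 14.44 at 48 h. DINP levels ran from 13.79 to 14.44 at 24 h and from 12.75 to 13.33 at 48 h, again below every other array. The time dependence was -0.96 ± 0.14 (adjusted p = 3.94e-04). In Cryab, the small heat shock protein αB-crystallin, it was the vehicle that moved: levels were 12.36, 12.44, 12.42, 12.24 and 12.26 at 24 h and 12.86, 13.41, 13.30, 13.01 and 13.27 at 48 h, a rise of 0.82 (adjusted p = 2.21e-07). With DINP the change was 0.16 (adjusted p = 0.119), and the time dependence was -0.67 ± 0.11 (adjusted p = 0.00315).

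The other negative calls were smaller. Nupr1, a stress-induced regulator of transcription (-0.47 ± 0.08, adjusted p = 0.00269), and the antimicrobial peptide Defb1 (-0.49 ± 0.09, adjusted p = 0.00576) were called in all 30 fits. The protease inhibitor A2m, an acute-phase protein in rats (-0.52 ± 0.11, adjusted p = 0.0274), was called in 24, Tax1bp3 in 23, the sugar transporter Slc50a1 in 18, the GTPase Rab12 in 9 and the RNA helicase Ddx39a in 4. For Rab12 a dimmer probe set had the opposite sign (0.27 ± 0.22). Thrsp, a regulator of lipid synthesis, was called through 2 probe sets (-0.38 ± 0.08 and -0.47 ± 0.10), while its brightest was not (-0.41 ± 0.10, adjusted p = 0.0758).

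Split by the kind of change, 20 of the 51 probe sets had positive effects at both times, higher at 48 h, and 12 of these were called at both times. Another 6 had negative effects, lower at 48 h (2 called at both times), and 5 had negative effects that were smaller at 48 h (4 called at both times). The other 20 had effects of opposite sign (6 called at both times), 14 of them negative at 24 h and positive at 48 h. An effect positive at both times but smaller at 48 h was found for 0 of the 51. Among all 895 probe sets called higher with DINP at both times, only 515 had the larger effect at 48 h. Their median effects were 0.38 at 24 h and 0.41 at 48 h. These classes go by the sign of the estimate alone, so an effect that faded can count as opposite in sign. Tax1bp3 went from 0.27 ± 0.04 at 24 h (adjusted p = 2.42e-05) to -0.02 ± 0.04 at 48 h (adjusted p = 0.846). Of the 20 with opposite signs, 4 were called at 24 h only and 10 at 48 h only. The 39 positive probe sets had a median effect of 0.05 at 24 h and 0.57 at 48 h, and the 12 negative ones 0.00 and -0.42.

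Both the control and the DINP cultures moved. In the counts that follow, rose and fell mean a called change. Of the 39 positive probe sets, 16 fell and 8 rose in vehicle between the times, against 4.09% and 3.41% of all probe sets, and 26 rose and 4 fell with DINP, against 5.86% and 7.20%. In 9 of the 39 the vehicle fell and no DINP change was called, in 15 DINP arrays rose and no vehicle change was called, and in 3 the vehicle fell and DINP arrays rose. Of the 12 negative ones, 6 rose and 1 fell in vehicle, and 1 rose and 8 fell with DINP. The time dependence is by construction the DINP change minus the vehicle change, so these counts describe its parts and add no test.

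**Figure D3:**
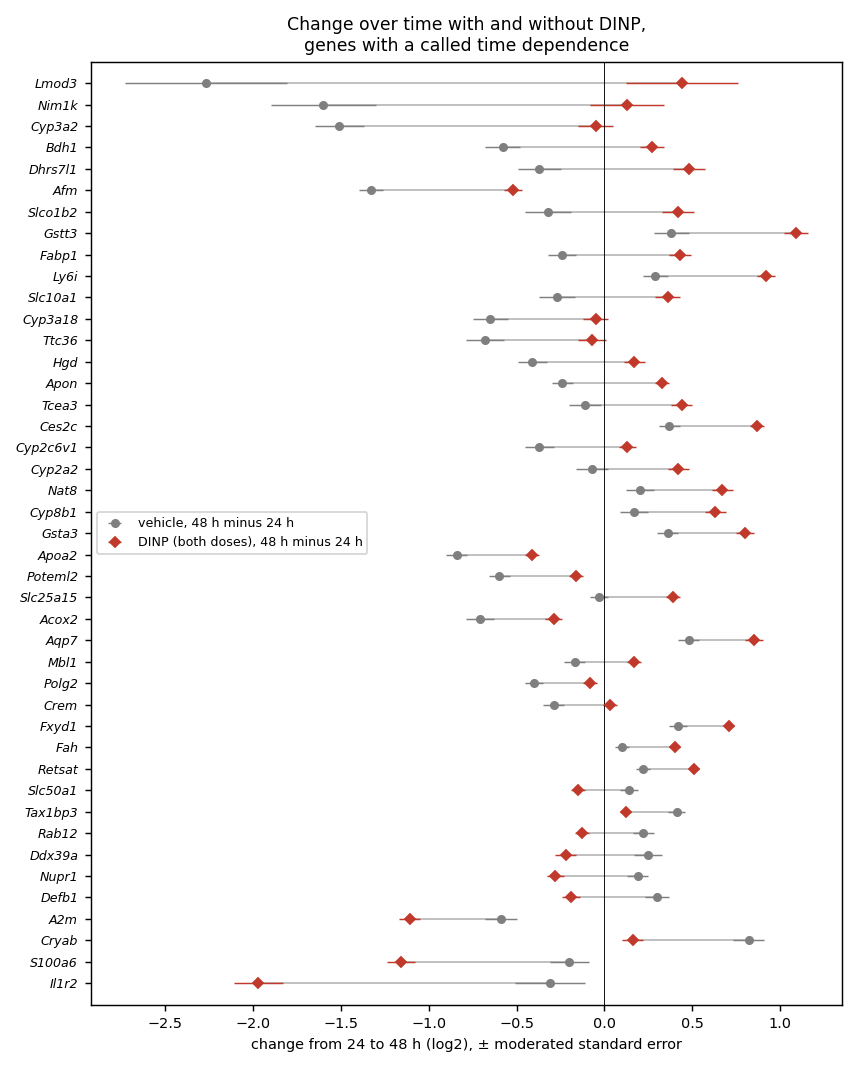
Change from 24 to 48 h (log2, ± moderated standard error) in vehicle (grey circles) and in DINP cultures of both doses (red diamonds) for the 43 genes called through their brightest probe set, ordered by time dependence, which is the length of the grey bar. For Cyp3a2 the vehicle moved by -1.51 and DINP by -0.05, while for Il1r2 these were -0.31 and -1.97.

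Ehhadh, Cyp4a1, Cyp4a3, Acsl1, Cpt1a, Vnn1 and Acot1, all of the PPARα type, had no called time dependence, unlike Fabp1. Ehhadh, the peroxisomal bifunctional enzyme, had vehicle levels of 10.23 to 10.87 at 24 h and 10.86 to 11.38 at 48 h, and DINP levels of 13.08 to 13.69 and 13.49 to 13.99. Its effects were 2.90 ± 0.09 and 2.73 ± 0.09, and their difference was -0.17 (95% interval -0.42 to 0.08, adjusted p = 0.879). For the ω-hydroxylases Cyp4a1 and Cyp4a3 the difference was -0.10 (interval -0.39 to 0.18) and -0.28 (interval -0.55 to -0.01, adjusted p = 0.722), for the acyl-CoA synthetase Acsl1 0.05 (interval -0.18 to 0.28), for the carnitine palmitoyltransferase Cpt1a -0.08 (interval -0.44 to 0.28) and for the pantetheinase Vnn1 0.07 (interval -0.10 to 0.24).

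The thioesterase Acot1 had effects of 5.80 ± 0.31 and 5.30 ± 0.31, minima because both vehicle means lay below the mark. Their difference of -0.50 (interval -1.38 to 0.38) is not bounded, and was 0.04 with a pseudocount of 64. Fabp3, another fatty acid binding protein, had a large but imprecise value (1.46, interval 0.32 to 2.59, adjusted p = 0.561), with vehicle means below the mark at both times. Without vehicle 48 h replicate 1 the values of Cyp4a1 and Cpt1a were 0.02 and 0.09. Pdk4, the kinase that shuts off pyruvate dehydrogenase, had a smaller estimate at 48 h but was not called (-0.50, interval -0.78 to -0.22, adjusted p = 0.211). The secreted lipase inhibitor Angptl4 gave -0.25 (interval -0.47 to -0.04, adjusted p = 0.644) and the lipid droplet protein Hilpda -0.28 (interval -0.55 to -0.01, adjusted p = 0.721). Among lowered genes, the matricellular Ccn2 had effects of -2.47 ± 0.08 and -2.35 ± 0.08, a difference of 0.12 (interval -0.11 to 0.36). A value that missed the threshold does not show equal effects: of the 10604 genes, the 95% interval of the time dependence lay within ±0.25 for 1758, within ±0.5 for 6428 and within ±1 for 9653.

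Gene lists are described by counts and medians, beside 46.4% positive values and a median of -0.02 over all 10604 genes, and beside 33 positive and 10 negative calls among all 14217 genes. Positive values over the 10604 genes also moved with the setting. They numbered 4922 as deposited, 4177 after median centring (median -0.04) and 4886 after quantile normalisation (median -0.02). Without vehicle 48 h replicate 1 there were 4897 (median -0.01). Among CAR-type drug metabolism genes 4 of 19 were called, all positive (Ces2c, Gstt3, Cyp2c6v1 and Cyp2a2), 15 of 19 were positive and the median was 0.15. The sulfotransferase Sult2a6 had the highest value of that list, 0.87, and was not called. Of the 9 Cyp3a and PXR-type genes 2 were called (Cyp3a2 and Cyp3a18) and 8 were positive (median 0.28). Of 23 bile acid genes 4 were called positive, and 16 were positive (median 0.10). After median centring, and likewise without the variance trend, 2 of the 19 CAR-type genes, 1 of the 9 Cyp3a and PXR-type genes (Cyp3a2) and 0 of the 23 bile acid genes were called.

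Small shifts in 1 direction ran through some lists with few or no calls. In the respiratory chain and ATP synthase list 45 of 50 values were positive, with a median of 0.06 and 0 called in limma's test (8 at an unadjusted p under 0.05). The count of positive values was 41 to 48 when single arrays were left out, 38 after median centring and 41 after quantile normalisation. In amino acid catabolism and the urea cycle 46 of 54 were positive (median 0.10, 2 called, Hgd and Fah), and after median centring 39 were positive and 0 called. Of 18 heat shock chaperones 17 were negative (median -0.08, 1 called, Cryab), with 14 negative at fewest when 1 array was left out. Genes within such lists are not independent.

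In the list for the unfolded protein response and ATF4, 27 of 40 genes were negative (median -0.08, Nupr1 called), and after median centring 6 were positive in place of 13 and 0 were called. Peroxisomal β-oxidation and biogenesis had a median time dependence of -0.00 with 1 of 37 called (Acox2), although 28 of the 37 were called higher with DINP at each time. Mitochondrial β-oxidation and ketogenesis had a median of 0.02 with 1 of 26 called (Bdh1), and 24 and 25 of the 26 were called higher with DINP at 24 and 48 h. These values depended on vehicle 48 h replicate 1. Without it 27 of 37 peroxisomal values were positive, in place of 18 (median 0.03), and 20 of 26 mitochondrial ones, in place of 16 (median 0.08). In cytosolic ribosomal proteins 0 of 40 were called at an adjusted or an unadjusted p under 0.05 in limma's test. In cell cycle and DNA replication 0 of 28 were called, with 1 in each direction at an unadjusted p under 0.05.

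**Figure D4:**
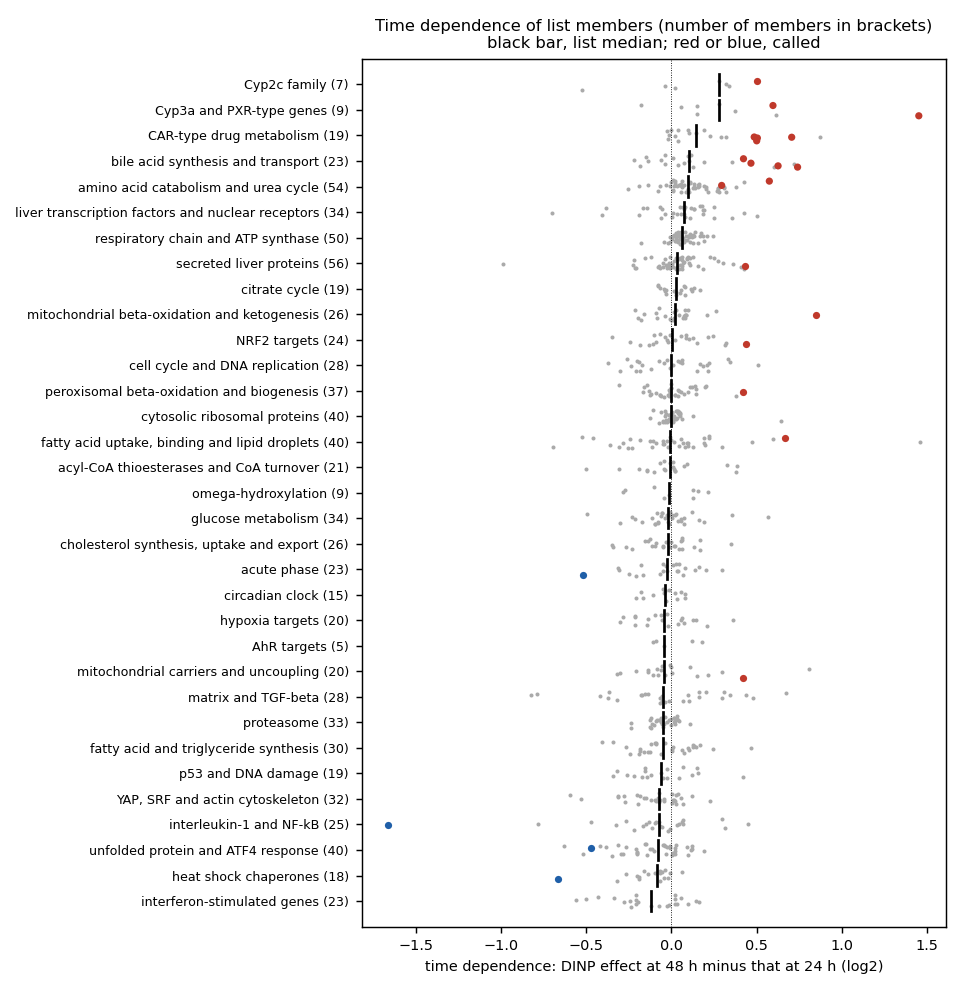
Time dependence (log2) of each measured member at or above the mark in 33 gene lists, ordered by median (black bar), with the number of members in brackets; red and blue points are called. Cyp2c and Cyp3a lists sit at a median of 0.28, peroxisomal β-oxidation at -0.00 and heat shock chaperones at -0.08.

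The doses were pooled in the test, so the sign at each dose of a called probe set is largely fixed by that choice and is not given as a result. The difference of the time dependence between the doses was called for 0 probe sets in limma's test, and 1462 had an unadjusted p under 0.05 (4.71%). With 1 dose alone 30 probe sets were called at 25 mM (0.0966%) and 11 at 100 mM (0.0354%), and these counts share the vehicle arrays. The interval of the difference, 100 mM minus 25 mM, was -0.24 to 0.58 for Cyp3a2, -0.17 to 0.28 for Fabp1, -0.10 to 0.28 for Afm and -0.42 to 0.72 for Il1r2.

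Markers of other cells and array controls were set beside these results. The summed signal of 13 hepatocyte markers had a time dependence of 0.01 (log2). That of 15 Kupffer and macrophage markers was 0.13: it ran from 31225 to 32613 in vehicle and 31776 to 35829 with DINP at 24 h, and from 30881 to 33850 and 34734 to 40142 at 48 h, with Cd163, Ptprc and Adgre1 below the mark and Cd14 the brightest. The sum of 10 cholangiocyte markers gave -0.10 (Krt7, Spp1 and Cftr below the mark), 14 stellate markers -0.03 (7 below), 12 endothelial markers 0.25 (7 below) and 12 lymphocyte markers 0.31 (9 below). In 0 of these lists was a member called. The 3′ to 5′ difference of GAPDH had a time dependence of -0.00 and that of β-actin -0.04, and the labelling spikes gave 0.18. The part of any of these in the results was not tested.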

How the data were processed

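Biotin-labelled RNA was put on rat expression arrays. The authors deposited linear intensities, and the submitters' processing notes name MAS5, without a version in the sources used here. Their 2% trimmed mean was 1500.65 to 1500.76 on every array. No depth applies to arrays, and their number limits the precision.

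From these, log2(signal + 16) was fitted with limma 3.58.1 in R 4.3.3: 6 group means, 24 residual degrees of freedom, variance trend, Benjamini-Hochberg adjustment over 31042 probe sets. The 57 controls were left out. Of the probe sets 20826 had 1 symbol, 436 several and 9780 none; 20764 were updated by Entrez ID to GRCr8 names. Code was tested on simulated data.

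Replicates were numbered in sample order. Named are up to 12 of the largest called values in each direction, which took in all 10 negative genes. Also named are up to 3 called members per list, fixed genes, and further called genes chosen after their values were seen. Members and lists were chosen with earlier results of these data known. Alternatives were a filter at the 40th percentile, pseudocounts 1 and 64, median centring, quantile normalisation, no variance trend, array weights, a replicate block, single doses, and leaving out each array.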

Additional observations from a re-analysis of the deposited data

Results flagged for a closer look

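The DINP effect differed between 24 and 48 h by limma's test of the difference itself for 51 probe sets.

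Among 438 groups of 5 arrays tested over 73 named genes and probe sets, 27 had 1 array far from the other 4 (its gap over the group's range above Dixon's critical value); chance gives about 1 in 20. In vehicle 48 h replicate 1, Ddx39a was 12.46 (the other 4 arrays 11.94 to 12.09), Fgf21 11.68 (9.84 to 10.21), Cyp1a1 14.70 (15.61 to 15.83), Polg2 12.51, Lmod3 6.82 and the probe set shared by Gsta5 and Gsta2 15.57. In vehicle 24 h replicate 5, S100a6 was 14.09, Acsl1 13.34 and Cyp2a2 13.35. In other vehicle arrays, Fabp3 was 7.99 (48 h replicate 2), Ccn2 13.01 and Polg2 13.11 (24 h replicate 3), Cyp1a1 15.34 (24 h replicate 1) and Fxyd1 12 (24 h replicate 4). With 25 mM DINP, Cyp3a2 was 13.02 and Cacna2d3 9.11 at 24 h (replicates 3 and 5), and Acox2 12.87, Cyp4a3 15.19 and Retsat 14.74 at 48 h (replicates 3, 2 and 2). With 100 mM DINP, Dhrs7l1 was 9.93 at 24 h (replicate 3), and at 48 h Nim1k was 7.89 (replicate 4), Slc10a1 13.77, Hilpda 13.18, Aqp7 12.55 and the Gsta5 and Gsta2 probe set 15.95 (replicate 5), Sesn1 10.98 (replicate 3) and an unnamed probe set 13.31 (replicate 1).

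A control probe set for 5S ribosomal RNA lay outside the tested set. At 24 h its mean log2 level was 11.05 with DINP (range 10.64 to 11.60) and 10.03 in vehicle (9.81 to 10.39). At 48 h it was 10.75 with DINP (10.07 to 11.01) and 9.75 in vehicle (9.56 to 9.98). Its time dependence was -0.03.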

How the results depend on the processing

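The 51 called probe sets became 14 after median centring, 16 without the variance trend, 30 with the 25 mM arrays only, 11 with the 100 mM arrays only, and 27 to 58 when single arrays were left out. They were 62 with the filter on dim probe sets, 75 after quantile normalisation, 49 with array weights, 48 and 45 with pseudocounts of 1 and 64, and 56 with the replicate block. The block used 5 rounds of consecutive array numbers, each with 1 array of every group. What else the arrays of a round share is not stated in the labels. Deviations of same-round arrays correlated at 0.01 on average (-0.06 to 0.10), against -0.00 for arrays of different rounds. Of 30 arrays 12 were closest to their own among the 5 rounds. No chance level was computed for that count, and a shared batch was not tested. Among 73 named genes and probe sets no called value reversed; 433 of the leave-one-out values in 28 of them and 154 of the other values in 41 lost the call. Values of genes not called reversed in 11 fits: Acot1 became 0.041 with a pseudocount of 64, Acsl1 -0.025 with the 25 mM arrays only and Ccn2 -0.081 with the 100 mM arrays only. When single arrays were left out Cyp4a1 ran from -0.173 to 0.025, Acsl1 from -0.015 to 0.114, Cpt1a from -0.209 to 0.088, Fgf21 from -0.447 to 0.012, Alb from -0.009 to 0.125 and Cyp1a1 from -0.086 to 0.196. The counts of called probe sets at 24 h, at 48 h and over time in vehicle and in DINP cultures moved by less than 1.5 times in every setting, and that for the difference between doses stayed at 0. Counts of called list members moved by more in several lists, and the positive members of the acyl-CoA thioesterase list went from 10 to 5 of 21 after median centring. Over all 10604 genes at or above the mark, positive values went from 4922 to 4177 with that same setting. The cause of these changes was not tested. No detection calls were used, so dim levels are bounded only by the 40th percentile mark.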
